A study of Bos taurus with 30 samples.

Results

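*FOS* (ENSBTAG00000004322) and *PTPN5* (ENSBTAG00000020257) are 2 of the 27607 genes whose messenger RNA was sequenced from the anterior pituitary in 30 bull calves. They are described side by side as genes of cell signalling, and both are on the list of genes that the study drew from its comparison of the 2 diets in these same calves. The diet difference of each gene is therefore given as a description, without a test. Tests were kept for a measure that the choice did not use, namely whether the genes moved together between calves on the same diet.

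The calves were Holstein-Friesian bulls, and each gave 1 library. From 2 weeks of age, 15 calves fed the high plane (HI) were offered 1.5 kg of milk replacer in 10 l per day with free access to concentrate, and 15 calves on the moderate plane (MOD) were offered 0.5 kg of milk replacer in 4 l and 0.5 kg of concentrate per day. Tissue was taken at 12 weeks of age in both groups, and no genotype was manipulated. Diets had been assigned within blocks of age, bodyweight, sire and farm, which the labels do not give. The RNA came from whole anterior lobe, so fewer cells of a type and less RNA per cell cannot be told apart in any level below.

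*FOS* encodes a transcription factor that pairs with JUN proteins. It is the classical immediate-early gene: its promoter answers within minutes to cyclic AMP, calcium and MAP kinase signals, its messenger RNA is short-lived, and in the pituitary it is induced by hypothalamic releasing hormones. *PTPN5* encodes the striatal-enriched protein tyrosine phosphatase, which removes activating phosphates from MAP kinases of the ERK family and from the kinase FYN, and which is best known in neurons of the striatum and hippocampus. The remaining genes of the comparison are *ADCYAP1R1*, the receptor of the peptide PACAP, which signals mainly through cyclic AMP, *RGS4*, which shortens the signal of G protein-coupled receptors by speeding GTP hydrolysis on G alpha subunits, and *POMC*, the corticotroph precursor of ACTH.

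Libraries held between 14.7 M and 26.9 M reads assigned to genes. Levels are normalised CPM, the read count of a gene scaled by the authors to an effective library size. HI replicate 3 stood apart from the other libraries. Its scaling factor was 0.510, where the others had 0.894 to 1.15. It had reads in 16940 genes against 18317 to 18975, and its mean correlation with the other libraries was 0.782 against 0.953 to 0.973. The differences of the members, and their correlations with each other and with *ADCYAP1R1*, *RGS4* and *POMC*, are given with and without it. The least different pair of libraries within a diet (MOD replicates 4 and 10) had a chi-square of 13.8 per degree of freedom, so no pair agreed within sampling noise. *POMC*, the only cell type marker whose identifier was at hand, was the 6th most abundant of the 14290 genes tested. No marker of the other pituitary lobes was at hand to set beside it.

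*FOS* was lower in HI calves and varied widely in both groups. In HI calves its level ran from 6.29 normalised CPM in replicate 6 through a median of 17.4 to 99.3 in replicate 14, with a mean of 30.1 ± 25.2 (SD, n = 15). In MOD calves it ran from 14.1 in replicate 13 through a median of 73.1 to 136.4 in replicate 6, with a mean of 69.5 ± 41.2 (SD, n = 15). The groups overlapped. Only HI replicate 14 exceeded the MOD median, so 14 of 15 HI calves lay below it, while 2 HI calves lay below the lowest MOD calf and 4 MOD calves lay above the highest HI calf.

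Within each diet the *FOS* levels were not evenly placed. Of the HI calves, 7 lay between 15 and 20 normalised CPM, and 6 lay over 30. Most MOD calves were high, with 9 of 15 over 60 and 4 over 100, yet 4 were under 30, as were 9 HI calves. Those MOD calves ran from 14.1 to 24.3 and those HI calves from 6.29 to 18.6. No calf of either diet lay between 24.3 normalised CPM (MOD replicate 2) and 31.2 (HI replicate 8). These bounds were chosen after the values were seen.

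*PTPN5* was also lower in HI calves, with a smaller difference and a much narrower spread. In HI calves it ran from 6.87 normalised CPM in replicate 10 through a median of 15.7 to 26.5 in replicate 1, with a mean of 16.9 ± 5.86 (SD, n = 15). In MOD calves it ran from 13.8 in replicate 15 through a median of 27.1 to 43.6 in replicate 9, with a mean of 26.5 ± 6.35 (SD, n = 15). The groups overlapped less than for *FOS*. All 15 HI calves lay below the MOD median, 5 of them below the lowest MOD calf, and 8 MOD calves lay above the highest HI calf. Most MOD calves were close together, with 13 of 15 between 20 and 30 normalised CPM, whereas 9 HI calves were under 20 and 6 were between 20 and 30. On this scale the MOD SD was not smaller than the HI SD, and these bounds too were chosen after the values were seen.

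**Figure D1:**
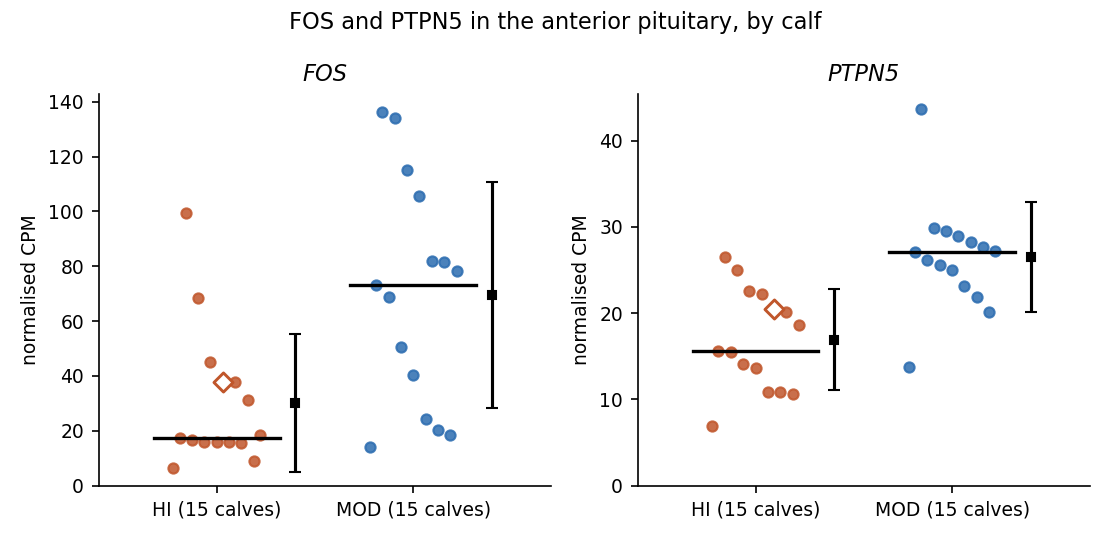
Level of *FOS* and *PTPN5* in normalised CPM (vertical axes) in each of the 15 HI and 15 MOD calves, with 1 point per calf, black lines for the medians, squares and bars for the mean ± SD, and an open diamond for HI replicate 3. *FOS* spans 6.29 to 99.3 in HI and 14.1 to 136.4 in MOD, while *PTPN5* spans 6.87 to 26.5 in HI and 13.8 to 43.6 in MOD, so the diets overlap for both genes.

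On the log2(value + 1) scale, where 1 is the pseudocount, the *FOS* difference (HI minus MOD) was −1.24 ± 0.36 (SE, 95% interval −1.97 to −0.50). That is a level 2.35-fold higher in MOD (95% interval 1.41 to 3.92). The ratio of the group means was 2.31 and that of the group medians 4.19, because a few HI calves carried much of the HI mean. For *PTPN5* the log2 difference was −0.66 ± 0.15 (SE, 95% interval −0.98 to −0.35), a level 1.58-fold higher in MOD (95% interval 1.27 to 1.97), with ratios of means and medians of 1.57 and 1.73. The diets accounted for 27.3% of the variance of *FOS* and 38.3% of that of *PTPN5* between calves on this scale.

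Neither difference rested on HI replicate 3. Without that library the log2 difference was −1.28 for *FOS* and −0.69 for *PTPN5*. Leaving out each of the 30 calves in turn kept *FOS* between −1.38 and −1.11 and *PTPN5* between −0.72 and −0.58. HI replicate 3 itself was at 38.0 normalised CPM for *FOS* and 20.5 for *PTPN5*, and at 19.4 and 10.4 when scaled by its library total instead.

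Across all genes the number of calls between the diets depended on the test. With the study's thresholds, a fold change over 1.5 and an adjusted p under 0.1, limma called 0 of the 14290 genes tested (0%), and so neither member. The edgeR quasi-likelihood test on recovered reads also called 0 genes. At an unadjusted p under 0.05 limma had 457 genes lower in HI (3.2%) and 476 higher (3.33%), 933 in all, and both members were among the lower ones. *PTPN5* was called by the Wald test of DESeq2, which called 36 genes (0.16%), 14 of them lower in HI (0.0623%), and by limma without HI replicate 3, which called 11 genes (0.077%), 7 of them lower in HI (0.049%). The quasi-likelihood test without that library also called it, among 15 genes (0.0973%), 8 of them lower in HI (0.0519%). *FOS* was called by none of the alternatives. The edgeR test and filter behind the study's own list are not fully stated, so these counts are not a repeat of that test. A MOD median above all 15 HI calves, as for *PTPN5*, was found in 31 of the 14290 genes (0.217%), and one above at least 14 of them, as for *FOS*, in 149 (1.04%). The members were chosen on this contrast, so these shares place them among all genes and test nothing. No such share was counted for the calves of a diet that lay beyond the range of the other diet.

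The sample titles fall into 4 series by their digits (19, 29, 37 and 78), whose meaning is not stated, and they were treated as possible batches. Series 78, with 8 HI and 8 MOD calves, was the only one with more than 3 calves of each diet. Within it *FOS* ran from 15.8 to 38.0 normalised CPM in HI and from 14.1 to 136.4 in MOD, and *PTPN5* from 6.87 to 25.01 in HI and from 13.8 to 43.6 in MOD. The log2 differences within series 78 were −1.26 for *FOS* and −0.71 for *PTPN5*. In series 19 both HI calves were below all 5 MOD calves, for *FOS* (6.29 and 15.6 against 20.4 to 82.0) and for *PTPN5* (15.5 and 15.7 against 23.1 to 27.7). Series 29 held 2 HI calves with *FOS* at 17.4 and 45.2 and 1 MOD calf at 134.1, while *PTPN5* was at 10.6 and 20.2 against 20.1. In series 37 the single MOD calf, at 73.1 for *FOS*, lay between the HI calves at 68.5 and 99.3, and the third HI calf was at 8.97. For *PTPN5* that MOD calf was at 28.9, above the HI calves at 10.8, 18.6 and 26.5. With the series as a covariate the *FOS* difference was −1.49.

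*FOS* was one of the most variable genes between calves on the same diet. Its within-diet SD on the log2 scale was 1.04, larger than that of 99.6% of the genes tested, whose median SD was 0.33 (0.23 without HI replicate 3). Counting error alone would give an SD of 0.058, or 0.311% of that variance, since between 131 and 3149 *FOS* reads were counted per library. The within-diet SD of *PTPN5* was 0.44, larger than that of 69.9% of genes (89.5% without HI replicate 3). Counting error made up 2.48% of its variance, at 141 to 799 reads per library. On the normalised CPM scale, which does not account for transcript length, *FOS* had a higher mean than 72.7% of the genes tested and *PTPN5* than 48.4%.

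The spread within each diet also differed in pattern between the genes. The SD of log2 *FOS* was 1.02 in HI and 1.06 in MOD, a ratio of 0.967. For *PTPN5* it was 0.51 in HI and 0.34 in MOD, a ratio of 1.52 (1.55 without HI replicate 3). Over all genes the median ratio was 1.73, and 1.11 without HI replicate 3. The *PTPN5* ratio was thus above that of 39.0% of genes with that library and of 88.4% without it. The *FOS* ratio was above that of 9.43% of genes with that library and of 33.8% without it.

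Although both genes were lower in HI, no joint movement from calf to calf was detected. In HI 14 calves were below the MOD median for both genes, against 3 MOD calves, which the diet differences of the members fix. Among calves of the same diet the pattern was mixed, with 3 HI calves above and 3 below their own group's median for both genes. The HI calf with the highest *FOS* (replicate 14, 99.3 normalised CPM) had a *PTPN5* level of 10.8, under the HI median, and the HI calf with the highest *PTPN5* (replicate 1, 26.5) had the second lowest HI level of *FOS*, 8.97. The MOD calf with the highest *FOS* (replicate 6) was at 21.8 for *PTPN5*, also under its group's median. The MOD calf with the highest *PTPN5* (replicate 9, 43.6) went the other way, with *FOS* at 105.5, above the MOD median.

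**Figure D2:**
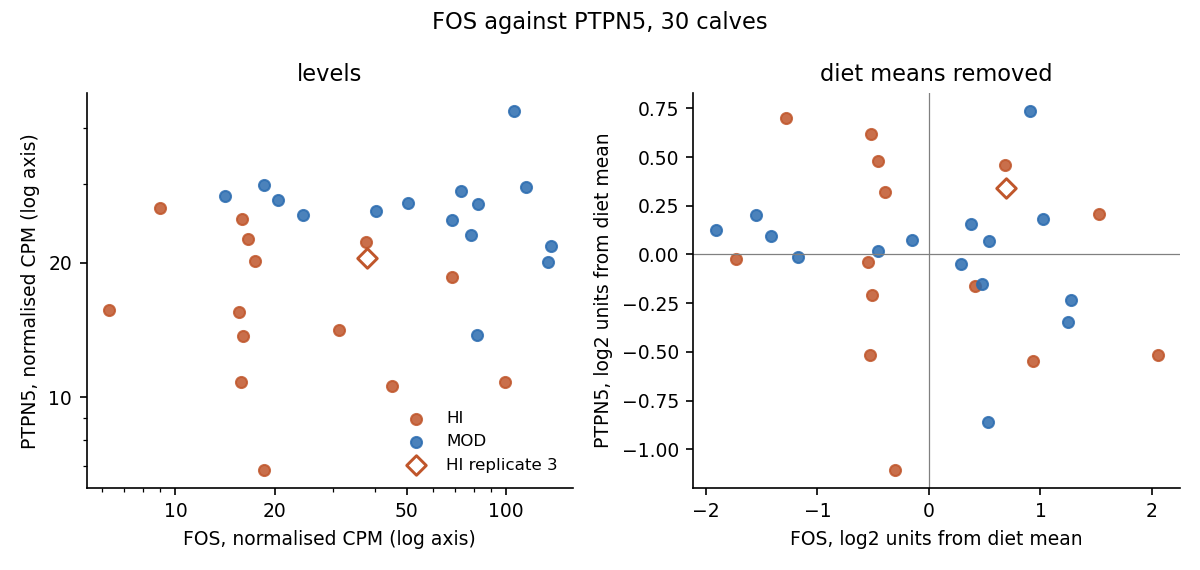
*PTPN5* against *FOS* as levels in normalised CPM on log axes (left) and as log2 deviations from the diet means (right), with 1 point per calf, HI in orange, MOD in blue and an open diamond for HI replicate 3. HI calves tend to sit lower on both axes of the left panel, and in the right panel neither diet shows a clear slope (Pearson r = −0.211 in HI and −0.201 in MOD).

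After the diet means were removed, Pearson's r between log2 *FOS* and log2 *PTPN5* over the 30 calves was −0.202 (permutation p = 0.290, two-sided) and Spearman's rho was −0.180 (permutation p = 0.347). Adjusted over the 7 pairs tested, the permutation p for r was 0.633. The value was −0.211 within HI, −0.201 within MOD and −0.226 without HI replicate 3. Leaving out the 2 calves whose *FOS* deviation from the diet mean lay farthest from the median deviation gave −0.112. With libraries scaled by their totals r was −0.316 (permutation p = 0.091). Spearman's rho was −0.300 within HI and −0.325 within MOD. Within series 78 r was 0.027. The relation did not pass the test, and its sign was not the same in that series. Among the 14289 other genes tested, *PTPN5* ranked 10644th from the highest in its rho with *FOS*, so it was not among the genes closest to *FOS*.

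*ADCYAP1R1* and *RGS4* were chosen by the study on the same contrast, and they differed between the diets in the opposite direction to the members. *ADCYAP1R1* was scarce, at 0.245 to 7.18 normalised CPM with a median of 1.83 in HI and at 0.480 to 3.43 with a median of 1.04 in MOD. Its means were 2.48 ± 1.89 and 1.24 ± 0.703 (SD, n = 15 each), and the log2 difference was 0.50 ± 0.21 (SE). The pseudocount of 1 shrinks differences at such levels, and the count tests gave 0.99 (edgeR) and 1.00 (DESeq2). Its lowest level, in HI replicate 3, rested on 3 reads, and without that library the lowest HI level was 0.889 and the log2 difference 0.60. Without HI replicate 2, its highest calf, the log2 difference was 0.40. *RGS4* ran from 1.96 (replicate 3) through a median of 7.54 to 20.8 in HI and from 2.13 through 4.11 to 8.48 in MOD, with means of 7.99 ± 4.83 and 4.47 ± 1.92 (SD, n = 15 each) and a log2 difference of 0.62 ± 0.22 (SE). Without HI replicate 3 its lowest HI level was 3.54 and the log2 difference 0.72. Without HI replicate 10, the calf with the most *RGS4*, that difference was 0.51. For each of them 12 of 15 HI calves lay above the MOD median, a split of that size or larger that 6.55% of genes showed. The ranges of the diets overlapped for both.

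*POMC* was on no list chosen from the contrast, so its difference was tested. It ran from 1705 through a median of 4619 to 52819 normalised CPM in HI and from 1213 through 4395 to 9890 in MOD. The means were 9686 ± 13163 and 4579 ± 1917 (SD, n = 15 each). The HI mean and SD were set largely by replicate 2, the calf at 52819, and the medians were close. The next highest HI calf, replicate 9, was at 22150. On the log2 scale the SD was 1.44 in HI and 0.66 in MOD. Their ratio was 2.20, above that of 67.1% of genes, and 2.23 without HI replicate 3, above that of 99.4%. The log2 difference was 0.43 ± 0.39 (SE, 95% interval −0.37 to 1.22, limma adjusted p = 0.844), and 8 of 15 HI calves lay above the MOD median. Without HI replicate 2 it was 0.20, while the count tests gave 1.08 (edgeR) and 1.09 (DESeq2). Adjusted p-values for *POMC* ran from 0.521 to 0.938 over the alternatives, so no difference was shown, and the interval is wide.

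**Figure D3:**
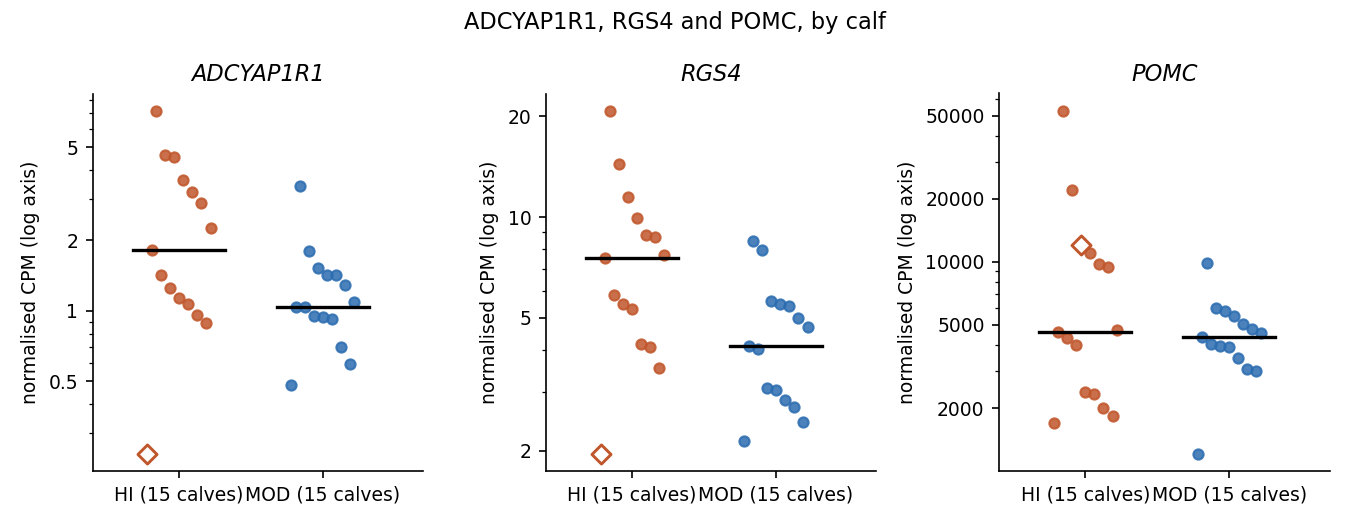
Level of *ADCYAP1R1*, *RGS4* and *POMC* in normalised CPM on log axes in each HI and MOD calf, with 1 point per calf, black lines for the group medians and an open diamond for HI replicate 3. *ADCYAP1R1* and *RGS4* have higher medians in HI (1.83 against 1.04 and 7.54 against 4.11), and *POMC* medians are 4619 in HI and 4395 in MOD with 1 HI calf at 52819.

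*PTPN5* and *RGS4* gave the strongest relation of the 7 pairs. Calves with more *PTPN5* than others on their diet tended to have less *RGS4*, with r = −0.490 (permutation p = 0.011) and rho = −0.401 (permutation p = 0.038) over the 30 calves. The HI calf with the least *PTPN5* (replicate 10, 6.87 normalised CPM) had the most *RGS4* of all calves (20.8). In MOD the calf with the most *PTPN5* (replicate 9, 43.6) was at 2.84 for *RGS4*, below the MOD median. The relation did not pass the threshold of 0.05 when adjusted over the 7 pairs, where the permutation p was 0.080 for r and 0.265 for rho.

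The sign of the *PTPN5* and *RGS4* relation was the same within HI (r = −0.516) and within MOD (r = −0.429). Its size rested in part on HI replicate 10, without which r was −0.341. Without the 2 calves whose *PTPN5* deviation from the diet mean lay farthest from the median deviation, r was −0.321 (permutation p = 0.126). The size of r depended also on the scaling, since it was −0.180 (permutation p = 0.403) when libraries were scaled by their totals. Under that scaling HI replicate 3 went from 20.5 to 10.4 for *PTPN5* and from 1.96 to 1.00 for *RGS4*. The totals scaling was not run without that library. In normalised CPM r without HI replicate 3 was −0.477 (adjusted permutation p = 0.103). Within series 78 r was −0.696 (adjusted permutation p = 0.045, n = 16), and with the means of the title series removed it was −0.542 (adjusted permutation p = 0.038).

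None of the remaining pairs passed the test over the 30 calves, with or without adjustment. For *FOS* with *ADCYAP1R1* r was −0.304 (permutation p = 0.107, adjusted 0.373) and rho −0.287 (permutation p = 0.130). That r was negative within HI (−0.373) and within MOD (−0.223). Without the 2 calves with the most extreme *FOS* deviations, chosen as above, this pair gave r = −0.393 (permutation p = 0.0375, adjusted 0.262). Its rho within HI was −0.532 (permutation p = 0.044, adjusted 0.305) and within MOD −0.071, and r without MOD replicate 11 was −0.372 (permutation p = 0.0496, adjusted 0.174). For *FOS* with *RGS4* r was −0.045 (permutation p = 0.816, adjusted 0.883) and rho −0.043 (permutation p = 0.825), with opposite signs in HI (−0.188) and MOD (0.160). For *FOS* with *POMC* r was −0.175 (permutation p = 0.362, adjusted 0.633) and rho −0.097 (permutation p = 0.610). *PTPN5* with *ADCYAP1R1* gave r = 0.033 (permutation p = 0.883, adjusted 0.883) and rho = −0.059 (permutation p = 0.781). *PTPN5* with *POMC* gave r = −0.069 (permutation p = 0.756, adjusted 0.883) and rho = 0.003 (permutation p = 0.988). Without the 2 farthest calves the last 4 values of r were −0.137, −0.090, −0.155 and 0.016. Without HI replicate 3 these 4 were 0.014, −0.205, 0.110 and −0.101, and r for *FOS* with *ADCYAP1R1* was −0.278.

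**Figure D4:**
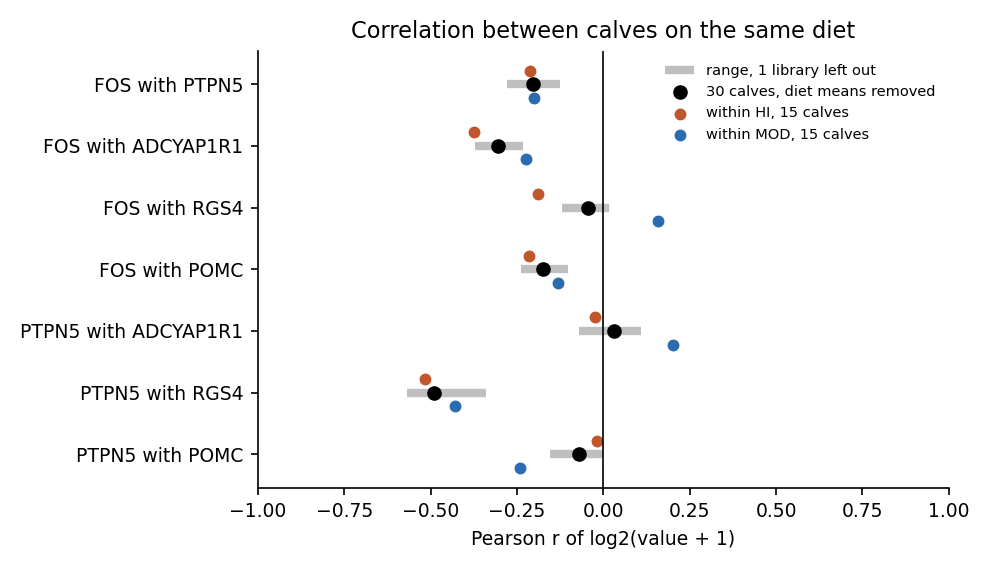
Pearson r of log2(value + 1) for the 7 pairs (horizontal axis), over the 30 calves with diet means removed (black), within HI (orange) and within MOD (blue), with grey bars for the range when each library was left out in turn. The *PTPN5* and *RGS4* values all lie below 0 (−0.490, −0.516 and −0.429, with a range of −0.568 to −0.341), while *FOS* with *RGS4* lies on both sides of 0.

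The genes that followed each member most closely were sought over all 14289 other genes by the rho of the same residuals, as a description. *FOS* had 1 close companion, ENSBTAG00000012046, with rho = 0.855 over the 30 calves (0.839 within HI and 0.839 within MOD), and it stayed first without HI replicate 3 (0.862) and with libraries scaled by their totals (0.841). The next gene, ENSBTAG00000010069, was at 0.714. The most opposite genes were ENSBTAG00000000630 (−0.696) and ENSBTAG00000008921 (−0.684). With libraries scaled by their totals these values were −0.524 and −0.641, and ENSBTAG00000000630 was then 17th from the lowest. ENSBTAG00000012046 ran from 18.4 through a median of 30.3 to 112.6 normalised CPM in HI and from 26.7 through 58.2 to 148.8 in MOD, and its highest HI calf was replicate 3. Its log2 difference between the diets was −0.57 ± 0.29 (SE, limma adjusted p = 0.792), the same direction as *FOS* with overlapping groups.

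**Figure D5:**
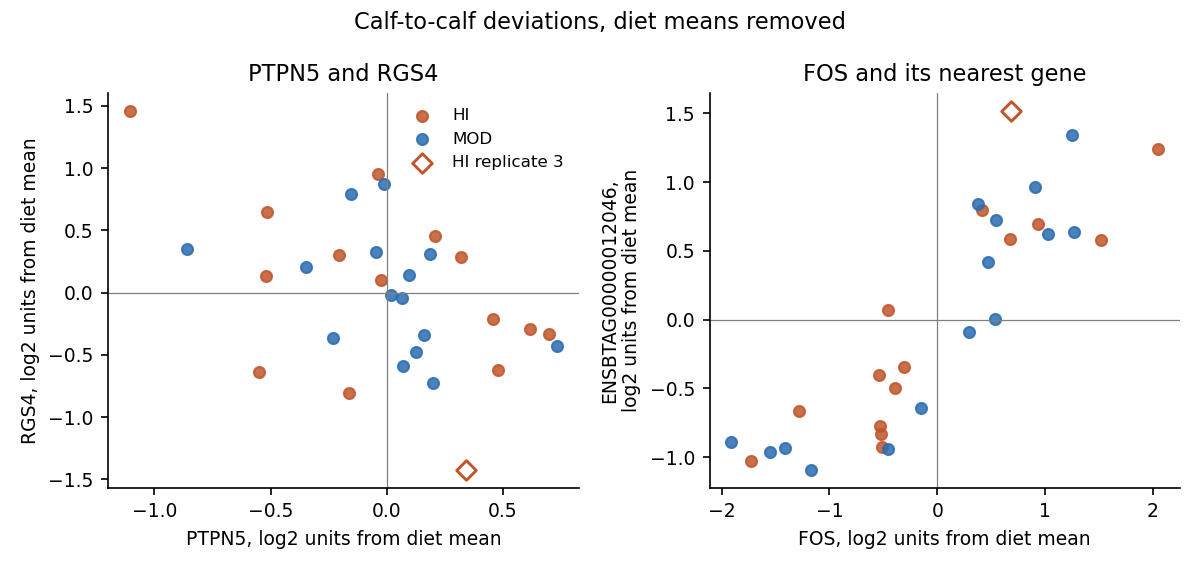
Deviation of each calf from its diet mean in log2(normalised CPM + 1), for *RGS4* against *PTPN5* (left) and for ENSBTAG00000012046 against *FOS* (right), with 1 point per calf, HI in orange, MOD in blue and an open diamond for HI replicate 3. *RGS4* falls loosely as *PTPN5* rises (Pearson r = −0.490), with HI replicate 10 at the upper left, while ENSBTAG00000012046 rises with *FOS* in both diets (Spearman rho = 0.855).

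*PTPN5* had no companion as close. Its highest values of rho were those of ENSBTAG00000011037 (0.614) and ENSBTAG00000003950 (0.599), and its lowest those of ENSBTAG00000005299 (−0.645) and ENSBTAG00000016844 (−0.639). The first of these was at 2.36 normalised CPM on average in HI and 2.16 in MOD, from 23 to 93 reads per library. Without HI replicate 3 its HI mean was 1.98 and its rho with *PTPN5* was 0.565, the 6th highest, and that rho was 0.371 when libraries were scaled by their totals. The values for ENSBTAG00000005299 and ENSBTAG00000016844 were −0.343 and −0.383 under that scaling. *RGS4* ranked 196th from the lowest of the 14289 genes in its rho with *PTPN5*.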

How the data were processed

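Each library held poly(A) RNA from 1 calf. The authors trimmed reads with cutadapt and aligned them with STAR to ARS-UCD1.2 (2.6 and 2.6.1 in the submitters' processing notes, other versions in the study's methods), counted reads per gene and tested HI against MOD in edgeR. The deposited table holds a normalised signal, gene counts scaled to an effective library size. All 556895 nonzero values (100%) lay within 0.01 of a whole read, so reads were recovered for edgeR 4.0.16 and DESeq2 1.42.0.

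Values were analysed as log2(value + 1) in limma 3.58.1 with a mean-variance trend, over genes above 1 in at least 15 libraries, with no covariate. Adjusted p-values follow Benjamini and Hochberg. Such differences understate the change of low genes. Correlations used residuals from diet means and 100000 two-sided permutations within diets (20000 with a calf left out), in Python 3.11.15. The diet fits were run on simulated reads with the same dispersion for every gene and no library like HI replicate 3.

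The members and lists were chosen with earlier results of these data known. The text names both members, *ADCYAP1R1*, *RGS4* and *POMC*, *VIPR2* and *KCNMB2* once, and for each member the 2 genes each way with the most extreme rho. Symbols come from the study's list, and that of *POMC* was supplied with its identifier. RefSeq (ARS-UCD2.0) matched 0 identifiers, so a list of 44 immediate-early genes and one of 19 partners of *PTPN5* had 0 genes with an identifier, and one of 28 cyclic AMP and receptor genes had 3. Cell type markers other than *POMC* and gene sequences were not analysed here. Replicate numbers follow accession order. Alternatives changed the pseudocount, scaling, filter, test and libraries. The count tests without HI replicate 3, counts of calls in series 78, and pairs with *VIPR2* and *KCNMB2* were chosen after seeing the data.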

Additional observations from a re-analysis of the deposited data

How the results depend on the processing

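The diet differences of *FOS*, *PTPN5*, *ADCYAP1R1* and *RGS4* kept their sign under all 38 alternatives, from −1.49 to −1.11, −0.73 to −0.58, 0.40 to 1.00 and 0.51 to 0.84 on the log2 scale. The count of genes called, 0 in limma, was 2 with scaling by library totals, 36 by DESeq2 and 15 by the edgeR quasi-likelihood test without HI replicate 3, and ran from 0 to 11 in limma with a calf left out (8 without HI replicate 2 and 11 without HI replicate 3). Another scaling moved the median log2 difference of all genes by less than 0.1 (−0.07 by totals). Scaling by totals turned the split at an unadjusted p under 0.05 to 213 genes higher and 568 lower in HI, and the quasi-likelihood test gave 979 higher and 400 lower.

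Several weak correlations changed sign. *FOS* with *PTPN5* was 0.027 in series 78. *FOS* with *RGS4* was 0.160 within MOD, 0.036 by totals, 0.062 with title series means removed and 0.014 without HI replicate 3, and ran from −0.120 to 0.016 with a calf left out. *PTPN5* with *ADCYAP1R1* was −0.025 within HI, −0.155 without the 2 farthest calves and −0.059 by Spearman's rho, and ran from −0.071 to 0.110. *PTPN5* with *POMC* was 0.016 without the 2 farthest calves and 0.00334 by rho. *PTPN5* with *RGS4* passed the adjusted threshold with title series means removed (−0.542), in series 78 (−0.696) and in 1 of 30 fits with a calf left out (range −0.568 to −0.341). The cause was not tested. No paired analysis was possible because replicate numbers only follow accession order. Depth limited the scarce genes, among them *ADCYAP1R1*, at 3 reads in 1 library, and ENSBTAG00000003950, where counting error made up 44.1% of the variance within diets.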

Other observations

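*VIPR2*, a receptor of VIP and PACAP that raises cyclic AMP, and *KCNMB2*, an auxiliary subunit of calcium-activated BK potassium channels, are on the same study list as the members. *VIPR2* was higher in HI by 0.60 ± 0.19 (SE) on the log2 scale. *KCNMB2* was lower, with a log2 difference (HI minus MOD) of −0.99 ± 0.21 (SE). These differences are descriptions, since the study chose the genes on this contrast. In 4 pairs added after the data were seen, *PTPN5* tended to be higher in calves with more *KCNMB2* on the same diet (r = 0.389, permutation p = 0.042, adjusted over the 4 pairs 0.166, and rho = 0.418, permutation p = 0.026, adjusted 0.103). The sign was the same within HI (0.327), within MOD (0.507), without HI replicate 3 (0.362) and without the 2 farthest calves (0.299), and the adjusted value did not pass. *KCNMB2* ranked 94th of 14289 genes in its rho with *PTPN5*. *FOS* with *KCNMB2* gave r = 0.102 (permutation p = 0.597) and rho = 0.115 (permutation p = 0.553), *FOS* with *VIPR2* gave r = 0.064 (permutation p = 0.744) and rho = 0.204 (permutation p = 0.285), and *PTPN5* with *VIPR2* gave r = −0.098 (permutation p = 0.663) and rho = −0.056 (permutation p = 0.793).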
